A study of Oreochromis niloticus with 12 samples.

Results

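RNA of the complement genes C3, c5, c8a and c8g was measured in gonads of Nile tilapia (Oreochromis niloticus). The genes were taken by their symbol in the deposited table of 22283 genes, with every copy of a symbol kept apart by its Ensembl identifier. This gave 6 genes: 3 copies of C3 and 1 gene each for c5, c8a and c8g. The study sequenced 12 libraries in 4 groups of 3: control testis, testis labelled SF1-suppressed, control ovary and ovary labelled SF1-suppressed. Steroid synthesis genes are activated by SF1, a nuclear receptor encoded by nr5a1. Per the labels, eggs were bathed in a transfection reagent in every group. The reagent carried antisense RNA fragments against SF1 for the suppressed groups and a blank plasmid or ultrapure water for the controls, and the labels do not say which construct or which control each library had. The fish of every group were reared for 150 days, the first 30 in a small circulating system, and no genotype or strain beyond the species is given. The labels do not say whether a library came from 1 fish or from pooled tissue, so each p-value reflects the spread among these libraries alone, and that spread may be technical.

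Complement is a chain of plasma proteins that marks and lyses microbes, and the liver is its main source in vertebrates. C3 is the central component: convertases cut it, and its larger fragment binds covalently to surfaces. C5 is cut next, and its larger fragment gathers C6, C7, C8 and C9 into the membrane attack complex, a pore. In mammals C8 is built from an alpha, a beta and a gamma chain, encoded by genes named as c8a, c8b and c8g are here. The alpha chain belongs to the pore-forming family, and the gamma chain is a lipocalin bound covalently to it. Bony fish often carry several C3 genes.

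The libraries held 36.8 to 60.5 M counts. The third library of suppressed testis stood apart from its group. Over all genes, its squared count differences from replicates 1 and 2 were 152 and 108 times the sampling variance (chi-square per degree of freedom). This ratio was 11.4 to 34.2 between the replicates of the other 3 groups and 25.4 between replicates 1 and 2 of suppressed testis. SF1 RNA did not pass as changed under the label. It stood at 23.7, 24.3 and 6.34 FPKM (fragments per kilobase of transcript, scaled to library depth) in suppressed testis against 9.26, 11.8 and 17.9 in control testis, and at 1.35, 2.95 and 1.73 against 1.37, 1.95 and 2.80 in ovary (edgeR adjusted p = 0.415 and 0.935). All directions below are therefore between labels. Between the control tissues 86.3% of 14719 genes passed, 44.1% higher and 42.3% lower in testis. Of 8 testis markers 7 were higher in control testis and cyp11c1 did not pass (edgeR adjusted p = 0.287). Of 7 ovary markers 6 were higher in control ovary and figla was higher in control testis. For example, dmrt1 reached 323 FPKM in testis and at most 3.31 in ovary, and gdf9 reached 239 in ovary and at most 0.932 in testis.

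The 3 C3 copies lay side by side on scaffold GL831216.1, within 104 kb that held no other gene of the table. They are ENSONIG00000016413 (from base 2401194 to base 2424207, minus strand), ENSONIG00000016437 (from 2449568 to 2473937, plus strand) and ENSONIG00000016456 (from 2477511 to 2505528, minus strand). The genome build is not given in the sources used here. The annotation marks each as 1 of many copies, so reads shared by similar copies may have been assigned to any of them.

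Only the middle copy, ENSONIG00000016437, had more than trace RNA, and of the 4 groups it was high in suppressed ovary alone. Suppressed ovary had 4.66, 6.00 and 5.15 FPKM, and control ovary had 0.0576, 0.103 and 0.0129. These values rested on 4650 counts in the 3 suppressed libraries and on 47 in the 3 control libraries. The groups did not overlap, as for 50.0% of the genes tested in ovary, and the mean level was 91.2 times as high in suppressed ovary. The log2 change was 6.55 (SE 0.39, adjusted p = 1.37e-06, edgeR quasi-likelihood test with Benjamini-Hochberg adjustment). Of the 12557 genes tested in ovary, 35.9% passed, and 24 had a larger log2 change. A gene was tested if it had at least 1 FPKM in at least 3 libraries of the comparison, and this copy met that filter only through the suppressed libraries. Without a filter its log2 change was 6.54 (adjusted p = 4.35e-08). The call held without each library in turn, with log2 changes from 6.05 to 7.28.

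In testis the same copy stayed low under both labels, at 0.204, 0.185 and 0.314 FPKM in control and 0.132, 0.240 and 0.396 in suppressed libraries. The groups overlapped, and the gene was below the filter there; fitted without a filter the log2 change was 0.28 (SE 0.52, adjusted p = 0.780). The change in testis differed from that in ovary by -6.32 on the log2 scale (SE 0.74, adjusted p = 0.000139), where 15.5% of 15382 genes passed this test of the difference (7.33% in the higher and 8.15% in the lower direction). The copy met the filter for this test only through the suppressed ovary libraries. Its call held under all 20 alternatives, the fit without a filter among them. Ordered by mean, its level ran from 5.27 ± 0.679 FPKM in suppressed ovary through 0.256 ± 0.133 in suppressed testis and 0.234 ± 0.0694 in control testis to 0.0578 ± 0.0450 in control ovary (SD, n = 3). Both testis groups overlapped each other and lay above control ovary. Between the control tissues, 88.0% of the genes tested had groups that did not overlap. The tissue difference of this copy did not pass the test without a filter (control testis against control ovary, log2 1.70, adjusted p = 0.0706).

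The outer C3 copies were at or near 0 throughout. ENSONIG00000016413 had 16 counts in 1 control ovary library and 0 in the other 5 ovary libraries, and 3 and 23 counts in all in control and suppressed testis. ENSONIG00000016456 had 23, 0 and 16 counts in control ovary and 4 counts in all in suppressed ovary. It had 0 in every testis library, as in 1 of the 3 control ovary libraries, so the groups overlapped. Neither copy met the filter in any comparison. Fitted without it, none of their label changes passed (adjusted p from 0.222 to 0.436 where a value could be fitted), and ENSONIG00000016456 passed between control tissues (adjusted p = 0.0411).

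**Figure D1:**
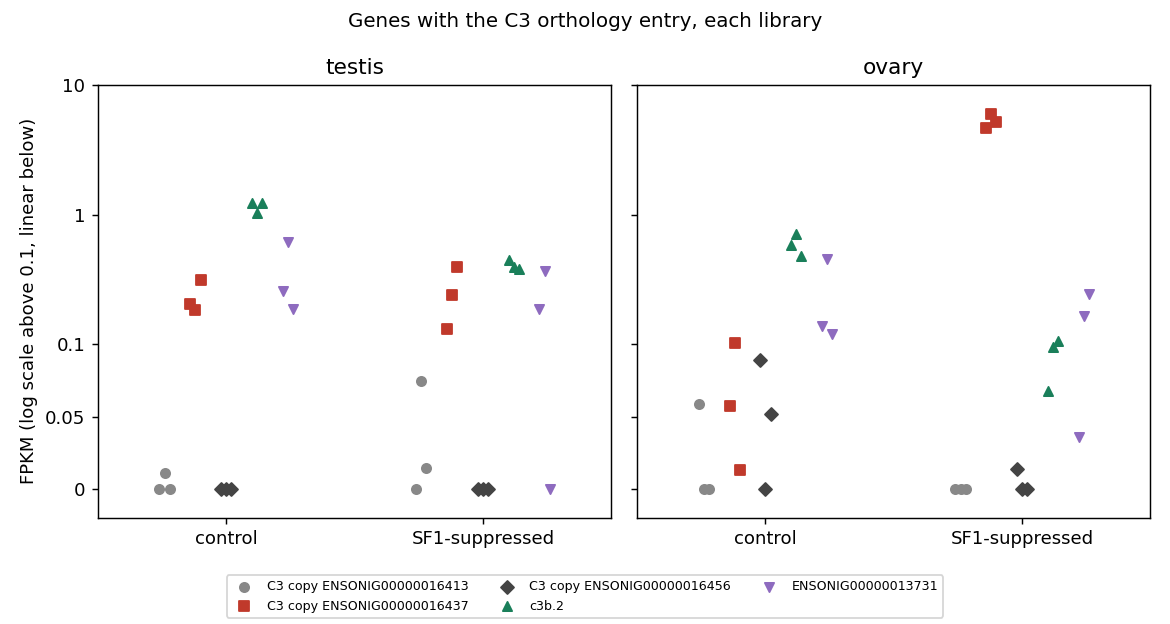
FPKM of the 5 genes that carry the C3 orthology entry, 1 point for each library, in testis (left) and ovary (right) by label; the vertical axis is logarithmic above 0.1 and linear below. The middle C3 copy stands between 4.66 and 6.00 in suppressed ovary and at or below 0.396 elsewhere, while c3b.2 is lower in the suppressed libraries of both tissues.

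Another 2 genes carried the C3 entry of the KEGG orthology (K03990) in the deposited table under other names. Both were looked up after the values of the C3 copies were known. The gene c3b.2 (ENSONIG00000000306, scaffold GL831280.1, from base 1586610 to base 1616849) moved the other way from the middle C3 copy. In testis it stood at 1.23, 1.03 and 1.24 FPKM in control and 0.447, 0.393 and 0.384 in suppressed libraries, with no overlap (as for 39.0% of genes). It fell by 1.40 on the log2 scale (SE 0.23, adjusted p = 0.0101), where 10.9% of genes passed in testis. The filter was met only through the control libraries, and without one it fell by 1.39 (adjusted p = 0.0112). Leaving out control replicate 1 or 3 ended that call (0.0524 and 0.0553). In ovary it was below the filter, at 0.589, 0.716 and 0.477 FPKM in control and 0.0680, 0.0982 and 0.107 in suppressed libraries. Fitted without a filter it fell by 2.61 there (SE 0.34, adjusted p = 9.84e-05). In suppressed ovary the summed level of the C3 entry was thus carried by the middle copy, with c3b.2 at 0.0910 ± 0.0203 FPKM against 5.27 ± 0.679. The other gene, ENSONIG00000013731, lay at the edge of a scaffold and stayed between 0 and 0.613 FPKM with all groups overlapping.

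The gene c5 (ENSONIG00000000645, scaffold GL831312.1, from base 430098 to base 458077, minus strand) was mainly a testis RNA, with a smaller difference between labels. It stood at 12, 11.2 and 11.9 FPKM in control testis and at 0.984, 0.801 and 0.764 in control ovary. The log2 difference was 3.60 (SE 0.13, adjusted p = 8.36e-09), in a comparison where 86.3% of 14719 genes passed (44.1% higher and 42.3% lower in testis) and 88.0% had groups that did not overlap. It was 3.78 under total count scaling, which moved the median of all genes from 0.05 to 0.23. In this comparison c5 met the filter only through control testis. The call held under all 14 alternatives, the fit without a filter among them. In suppressed ovary c5 had 1.52, 1.15 and 1.16 FPKM, all above the control libraries. It rose by 0.66 on the log2 scale (SE 0.19, adjusted p = 0.0234), on 1254 against 769 counts. It met the filter in ovary only through the suppressed libraries, and without a filter the change was 0.65 (adjusted p = 0.0275). In ovary 35.9% of genes passed the test (18.1% higher and 17.9% lower) and 50.0% had groups that did not overlap, so neither sets c5 apart. Leaving out control replicate 2 or 3, or suppressed replicate 1, ended the call (0.0652 to 0.110), as did limma on log2(FPKM + 1) (0.0864).

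In suppressed testis c5 had 12.6, 13.5 and 15.6 FPKM. The groups did not overlap (as for 39.0% of genes in testis), but the log2 change of 0.37 (SE 0.13) did not pass (adjusted p = 0.108). The testis and ovary changes of c5 were not shown to differ (difference -0.32, SE 0.22, adjusted p = 0.355). By mean the order was 13.9 ± 1.52 FPKM in suppressed testis, 11.7 ± 0.403 in control testis, 1.28 ± 0.212 in suppressed ovary and 0.850 ± 0.118 in control ovary (SD, n = 3).

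The gene c8a (ENSONIG00000018653, scaffold GL831264.1, from base 1078800 to base 1088514, minus strand), for the pore-forming alpha chain of C8, was also higher in testis, and fell there under the suppressed label. Control testis had 2.11, 1.80 and 1.65 FPKM and suppressed testis 0.695, 0.666 and 0.722, on 631 and 288 counts. The groups did not overlap (as for 39.0% of genes in testis), and the suppressed libraries, the one that stood apart included, had an SD of 0.0281 FPKM. The log2 change was -1.30 (SE 0.25, adjusted p = 0.0182), where 10.9% of 14368 genes passed in testis (5.25% higher and 5.68% lower). The gene met the filter only through the control libraries; without a filter the change was -1.28 (adjusted p = 0.0220). Fits that left out a control library, or the first or second suppressed library, ended the call, with adjusted p from 0.0513 to 0.0913 and log2 changes from -1.39 to -1.18. Without suppressed replicate 3 it was -1.37 (adjusted p = 0.00634).

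In ovary c8a was at trace level, with 13, 23 and 0 counts in control libraries and 57, 47 and 4 in suppressed libraries (0.0842 ± 0.0809 and 0.236 ± 0.191 FPKM). The groups overlapped, and the change fitted without a filter was 1.51 (SE 1.17, adjusted p = 0.395). Control testis exceeded control ovary by 4.25 on the log2 scale (SE 0.76, adjusted p = 0.000537). The filter was met only through control testis, and without one the difference was 4.14 (adjusted p = 0.000769). The difference between the testis and the ovary change of c8a was -2.85 (SE 1.25) and did not pass (adjusted p = 0.146). It passed with limma on log2(FPKM + 1) (-0.93, adjusted p = 0.00280).

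The gene c8g (ENSONIG00000014453, scaffold GL831157.1, from base 3342386 to base 3346555, plus strand), for the lipocalin-like gamma chain, had the opposite distribution. It stood at 6.62, 6.88 and 5.25 FPKM in control ovary and had 0 counts in the 3 control testis libraries. Against a limit of 3 counts over the control testis group, its share of the counts was at least 182-fold higher in control ovary, which covers counting error only (edgeR adjusted p = 3.82e-06). In this comparison 86.3% of genes passed, and c8g met the filter only through control ovary. The call held under all 14 alternatives, the fit without a filter among them. Of the suppressed testis libraries 1 had 6 counts and the others had 0. In suppressed ovary c8g had 9.67, 6.32 and 6.96 FPKM. These values overlapped the control libraries, and the log2 change of 0.36 (SE 0.22) did not pass (adjusted p = 0.232). With 0 counts in 5 of 6 testis libraries it was below the filter there, and the change fitted without one did not pass (log2 4.02, SE 2.93, adjusted p = 0.437).

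**Figure D2:**
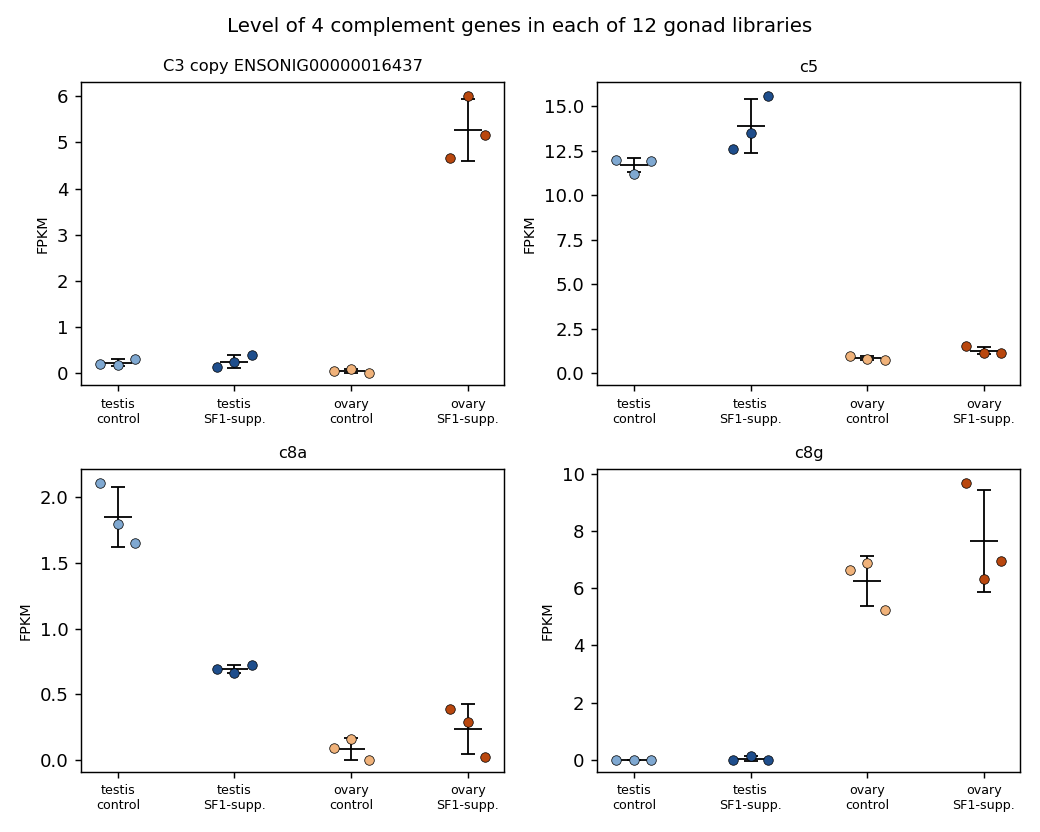
FPKM of the middle C3 copy, c5, c8a and c8g in each library (points) by group, with the mean and SD of 3 libraries (bars); each panel has its own linear axis. The C3 copy is high in suppressed ovary alone, c5 and c8a are higher in testis, and c8g is at or near 0 in testis and between 5.25 and 9.67 in ovary.

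The RNAs of the C8 chains therefore differed in the gonad where they were found. The third chain gene, c8b, lies 332 bases from c8a on the opposite strand and was low in the same tissue. It stood at 0.463, 0.765 and 0.580 FPKM in control testis, 0.628, 0.717 and 0.192 in suppressed testis, and at most 0.0524 in any ovary library. It did not meet the filter, and control and suppressed testis overlapped. In ovary c8g at 6.25 ± 0.875 FPKM stood beside c8a at 0.0842 ± 0.0809, and in control testis c8a at 1.85 ± 0.230 stood beside c8g at 0. No gene of the table overlapped any of the 6 members. Of the genes next to c8g, both on its strand, msrb2 (918 bases away) went from 0.116 to 1.47 FPKM (means) in ovary, below the filter, and did not pass in testis (log2 0.15, adjusted p = 0.896). The other, ptgdsb.1 (1329 bases away), fell in testis (log2 -2.90, adjusted p = 0.000353) and ovary (-1.39, adjusted p = 0.00189). Next to c5, tti2 (4077 bases away, same strand) rose in ovary (log2 0.81, adjusted p = 6.39e-05) and did not pass in testis (0.09, adjusted p = 0.806). Its other neighbour, prdm12b, had a mean of 0.115 FPKM in control testis and 0 in ovary. Beside the C3 copies, prkacab fell in ovary (log2 -0.49, edgeR adjusted p = 0.0304) and zgc:65894 rose (0.16, adjusted p = 0.0449). Neither passed in testis (adjusted p = 0.398 and 0.139). The other neighbour of c8a, si:ch211-188c16.1, passed in neither gonad (adjusted p = 0.771 in testis and 0.0955 in ovary).

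Counted over the members, 1 of 2 tested passed in testis (c8a, lower), against 10.9% of all genes, 2 of 3 in ovary (the C3 copy and c5, both higher), against 35.9%, and 3 of 3 between control tissues, against 86.3%. Several passed the filter only through the group in which they were high, so nothing is read from these counts. In these bulk samples fewer cells of a type and less RNA per cell cannot be told apart.

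The other complement genes came from lists of the pathway (18 genes found in the table). In testis 14 were tested: 2 rose, 3 fell and 9 did not pass, with a median log2 change of -0.22 against 0.00 for all genes, of which 10.9% passed. In ovary 11 were tested: 4 rose, 4 fell and 3 did not pass, with a median of -0.37 against 0.00 for all genes, of which 35.9% passed. Some met the filter only through the group in which they were high (CFI, vtnb and vtna in testis, CFI and C1R in ovary). Nothing is therefore read from these counts and medians.

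Among the soluble regulators, CFI, the protease that inactivates the bound fragment of C3, rose under the suppressed label in both gonads. In testis it went from 0.0853, 0.0537 and 0 FPKM to 3.86, 4.49 and 4.90, and in ovary from 0.0725, 0.0620 and 0.186 to 1.17, 1.19 and 1.28. The groups did not overlap in either tissue, as for 39.0% of genes in testis and 50.0% in ovary. The log2 changes were 6.56 (SE 0.64, adjusted p = 0.00121) and 3.53 (SE 0.38, adjusted p = 7.68e-05), and both calls held without each library in turn. CFI met the filter only through the suppressed libraries in both gonads; without one the changes were 6.57 and 3.53 (adjusted p = 0.000555 and 1.73e-05). The 2 changes differed by 3.00 (adjusted p = 0.0270), a call that ended when control testis replicate 2, control ovary replicate 3 or a suppressed ovary library was left out (0.0512 to 0.0863). The call for this difference also ended under an alternative fit that kept every library. A vitronectin gene, vtnb, whose mammalian counterpart keeps the terminal complex out of membranes, rose from 0.145 to 1.75 FPKM (group means) in testis and from 87.1 to 113 in ovary (log2 3.68 and 0.45, adjusted p = 0.000902 and 0.000780). In testis it met the filter only through the suppressed libraries (3.70 without one, adjusted p = 0.000455). The 2 vtnb changes differed by 3.18 (adjusted p = 7.67e-06). The other vitronectin gene, vtna, had 0.964, 0.848 and 0.920 FPKM in control and 1.46, 1.22 and 1.12 in suppressed testis, which did not pass (log2 0.59, adjusted p = 0.104). It met the filter there only through the suppressed libraries. In ovary vtna was below the filter, at 0.738, 1.20 and 0.948 in control and 0.366, 0.367 and 0.257 in suppressed libraries. These groups did not overlap, as for 50.0% of the genes tested in ovary. The vtna changes differed between the gonads (2.02, adjusted p = 0.00219), in a test whose filter it met mainly through the suppressed testis libraries. Clusterin (clu), with a like role, fell in testis (log2 -2.99, adjusted p = 0.000117) and stood at 378, 563 and 589 FPKM in control and 245, 455 and 284 in suppressed ovary, a change that did not pass (adjusted p = 0.0679). The 2 clu changes differed by -2.46 (adjusted p = 0.000285).

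In the terminal chain, c7a was the most abundant gene in control testis and followed c8a in direction. It stood at 24.1, 24.6 and 25.5 FPKM in control testis and 5.44, 5.58 and 1.69 in suppressed testis. It fell by 2.45 on the log2 scale (SE 0.37, adjusted p = 0.00695), and without suppressed replicate 3 it fell by 2.09 (adjusted p = 3.28e-07). In ovary c7a was below the filter, at 0.0207, 0.0501 and 0.101 FPKM in control and 0.289, 0.292 and 0.289 in suppressed libraries. These values rested on 28 and 146 counts. The testis change of c7a differed from the ovary change by -4.82 (SE 0.62, edgeR adjusted p = 0.000288). The gene c6 was tested in both gonads and passed in neither, with 6.04, 6.97 and 7.73 FPKM in control testis against 5.41, 5.10 and 1.75 in suppressed testis. The gene c9, for the chain that completes the pore, did not exceed 0.296 FPKM in any library.

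At the start of the classical pathway, c1qa, c1qc and C1R fell in ovary and did not pass in testis. The recognition chain c1qa had 18.6, 31.3 and 29.5 FPKM in control and 13.5, 18.3 and 9.69 in suppressed ovary (log2 -0.87, adjusted p = 0.0157), and c1qc fell by 0.85 (adjusted p = 0.0245). Both calls ended when control replicate 2 or 3, or suppressed replicate 1, was left out, and that of c1qc also without suppressed replicate 3 (0.0502 to 0.0887). The protease gene C1R, which met the filter only through the control libraries, fell by 1.87 (adjusted p = 0.000527; by 1.88 without a filter, adjusted p = 0.000128) and kept its call without each library. None of these 3 changes was shown to differ between the gonads (adjusted p = 0.437, 0.474 and 0.0662). The protease gene masp1, of the lectin pathway, fell in testis from 16.4, 16.3 and 17.0 FPKM to a mean of 9.20 ± 0.727 (SD, n = 3). The lowest suppressed library was at 8.62, and the groups did not overlap, as for 39.0% of genes in testis (log2 -0.73, adjusted p = 0.0142). In ovary masp1 rose from 1.73, 1.62 and 1.62 to 3.24, 3.18 and 3.59 (1.08, adjusted p = 0.000689), and the 2 changes differed (-1.84, adjusted p = 5.51e-05). Its testis call ended when a control library or the second suppressed library was left out (0.0573 to 0.0694). The integrin chain itgb2, part of receptors for C3 fragments on leukocytes, fell in ovary from 31.0, 34.8 and 36.8 to 4.65, 6.44 and 5.14 FPKM (log2 -2.59, adjusted p = 2.79e-07). The mitochondrial C1q-binding protein gene c1qbp rose there by 0.18 (adjusted p = 0.0223), a call that ended without control replicate 3 or suppressed replicate 1 or 3 (up to 0.0999) and under total count scaling (0.112). The gene itgb2 is also on the leukocyte list given further on.

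**Figure D3:**
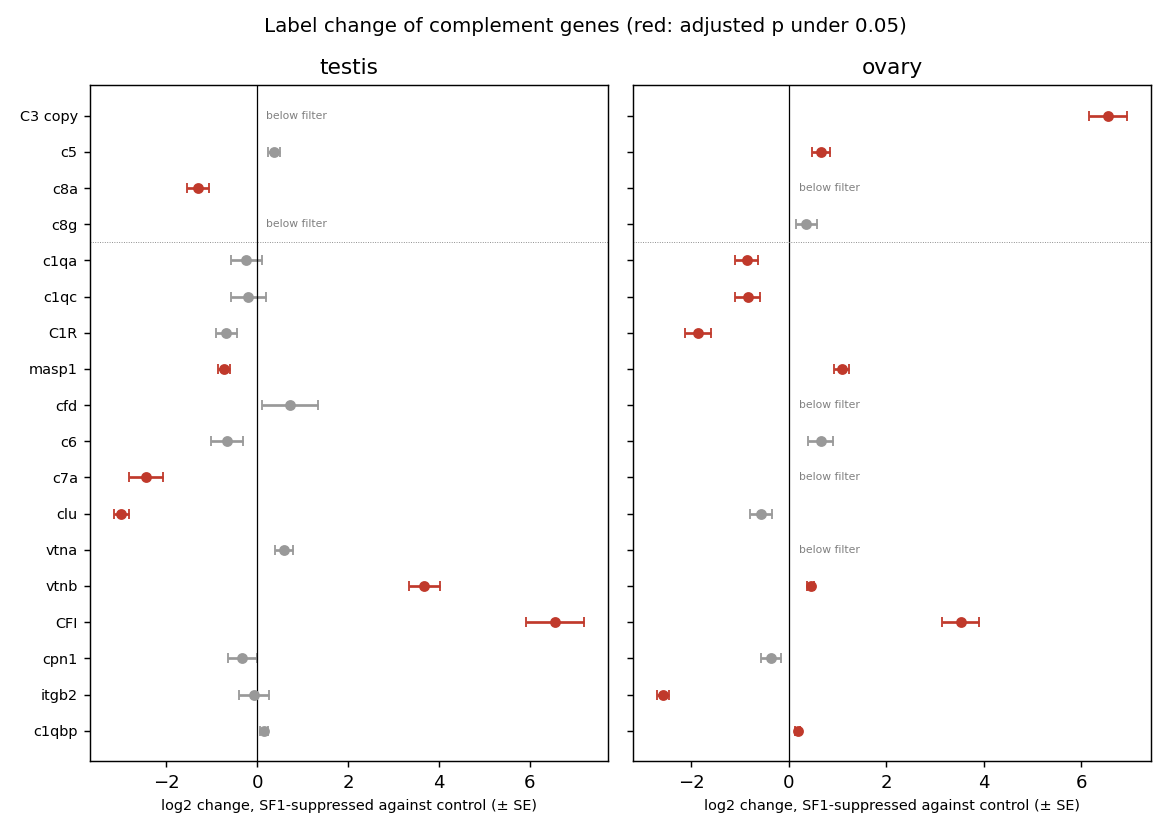
Log2 change under the SF1-suppressed label with its standard error for the members above the dotted line and the other complement genes below it, in testis (left) and ovary (right); red points have an adjusted p under 0.05 and genes below the FPKM filter are marked. CFI and vtnb are higher in both gonads, c8a, c7a, clu and masp1 are lower in testis, and the C3 copy stands at 6.55 in ovary.

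**Figure D4:**
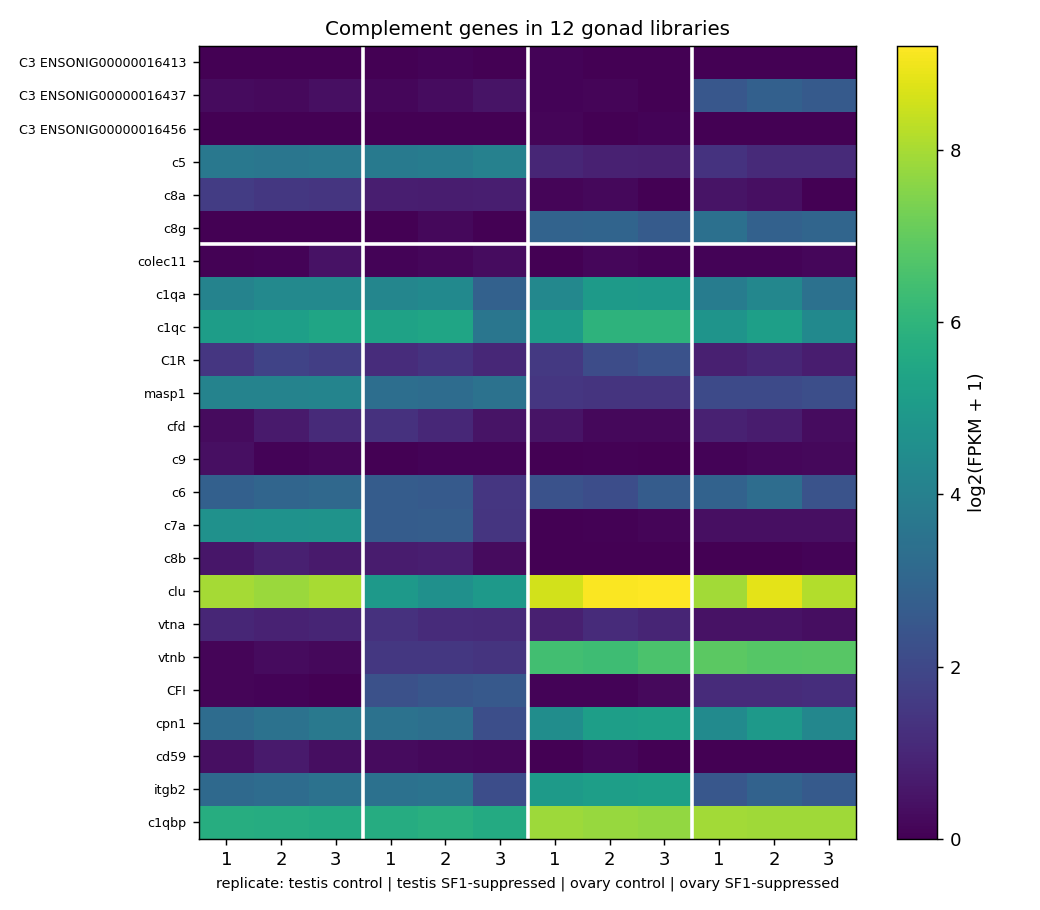
Level as log2(FPKM + 1) (colour) of the 6 members (above the white line) and 18 other complement genes (below it) in the 12 libraries, in columns by group and replicate. The C3 copy is raised in the 3 suppressed ovary libraries, c7a is high in control testis, vtnb is high in ovary, and c1qa, c1qc and itgb2 are lower in the third suppressed testis library than in the first 2.

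Markers of liver and leukocytes, which are known sources of complement, were also compared between labels. Of 24 liver genes found, 4 were tested in each gonad: 2 fell in testis (ambp and apoeb) and 4 in ovary (cp, tfa, apoeb and apoa1a), and 0 rose, where 5.68% and 17.9% of all genes fell. In testis ambp, and in ovary tfa, met the filter only through the control libraries. In ovary cp met it mainly through them, with 0.989, 1.11 and 0.927 FPKM in the suppressed libraries. Nothing is therefore read from these counts. The summed level of the 24 genes was 36.4 to 43.3 FPKM in control and 14.0 to 18.7 in suppressed testis, and 1551 to 3642 in control and 210 to 335 in suppressed ovary, most of it apoeb. Its largest part, apoeb, went from 28.4 to 8.57 FPKM (means) in testis and from 2604 to 260 in ovary. Not every listed gene followed the sum. Below the filter, the fetub gene ENSONIG00000010988 went from 0.205 to 0.901 FPKM (means) in testis and from 0.518 to 0.901 in ovary. The plg gene ENSONIG00000015755 went from 0.217 to 0.525 in ovary. Of the 24 genes, 15 stayed under 1 FPKM in every library, among them fgb (at most 0.155), fgg (0.148), hpx (0.126) and fabp10a (0.0883), and 0 were at 0 counts in all 12 libraries. The other 9 reached 3276 FPKM (apoeb), 358 (apoa1a), 5.63 (tfa), 2.89 (ambp), 1.55 (cp), 1.44 and 1.22 (2 fetub genes), 1.06 (fga) and 1.04 (rbp4). Of 13 leukocyte genes, 8 were tested in testis and 0 passed. Within suppressed testis each of these 8 was lowest in replicate 3, the library that stood apart. For example, mpx had 5.45, 6.50 and 0.874 FPKM there and ptprc had 8.23, 8.66 and 6.47. A lack of change in testis is not read from these tests. In ovary 10 were tested and 3 fell (LYZ, csf1ra and itgb2), against the same shares of all genes. This LYZ gene met the filter mainly through control ovary, with 0.507, 1.06 and 0.974 FPKM in the suppressed libraries. The other 7 did not pass, with log2 changes from -0.87 (spi1b) to 0.95 (mpx), among them ptprc (-0.10) and coro1a (0.00). Below the filter in ovary, lck went from 0.315 to 0.885 FPKM (means). The summed level of the 13 genes was 36.3 to 44.0 FPKM in control and 19.6 to 52.5 in suppressed testis, and 57.8 to 90.4 in control and 29.7 to 43.7 in suppressed ovary. In ovary itgb2 alone went from 34.2 to 5.41 FPKM (means). There lcp1 went from 15.1 to 8.94, coro1a from 7.53 to 7.17 and ptprc from 4.73 to 4.20. The part of these markers in the complement results was not tested.

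The genes whose pattern over the 12 libraries was most like that of each member were found by the Pearson correlation of log2(FPKM + 1) among 13551 genes with a symbol. These correlations describe libraries that share tissue and label, and the first 3 are named. For the middle C3 copy they were hoxb13a (r = 0.994), oit3 (0.992) and calcoco1b (0.991), all near 0 in control ovary and at 2.03, 6.36 and 12.8 FPKM (means) in suppressed ovary. For c5 they were tekt3 (0.999), a tektin of the sperm flagellum, dcst2 (0.999), a sperm membrane protein in mammals, and the DNA repair gene ercc8 (0.999). For c8a they were bco2b (0.981), serpinf1 (0.979) and aldh9a1a.1 (0.978). Of these, bco2b went from 5.29 to 1.75 FPKM (means) in testis under the suppressed label. For c8g they were si:dkeyp-117b11.1, ywhaqb and arl5a (each 0.997), of which the first stood at 5.11 FPKM in control ovary and 0.0636 in control testis.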

How the data were processed

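RNA sequencing libraries of tilapia gonads were analysed from 1 deposited table. The authors' deposited counts (whole read counts per gene, not normalised) and FPKM came in 12 columns each, per the file headers, and 0 value columns were left without a library. A gene with 0 counts is listed in the deposited FPKM at 0.0001 and was set to 0 here. HISAT and StringTie are named in the submitters' processing notes. For their versions, the counter, the genome build and the use of strand, nothing is stated (not given in the sources used here).

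Counts were tested in R 4.3.3 by edgeR 4.0.16 (quasi-likelihood, TMM scaling), in genes with at least 1 FPKM in at least 3 libraries of the comparison. Each comparison used its own libraries and no covariate, and the Benjamini-Hochberg adjustment ran over every gene in it, with a threshold of 0.05. The standard error was derived from the F statistic. DESeq2 1.42.0 and limma 3.58.1 on log2(FPKM + 1) or log2(FPKM + 0.1), other scalings, other filters and each library left out (with the genes tested held fixed) were alternatives. The fits were tested on simulated data. Bounds against a group at 0 used 3 counts over the group.

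The rule for named genes took every member, the listed complement genes that passed a label comparison (others are named for context) and the 3 genes most like each member. Members and lists were chosen with earlier results of these data known. Sequences were not analysed here.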

Additional observations from a re-analysis of the deposited data

Results flagged for a closer look

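The middle C3 copy (ENSONIG00000016437) was singled out because its change under the suppressed label differed between the gonads by a test of that difference. It met the filter for that test only through the suppressed ovary libraries, where it is high, and 15.5% of 15382 genes passed. The testis change minus the ovary change was -6.32 on the log2 scale (SE 0.74, adjusted p = 0.000139, edgeR), from group means of 0.234 and 0.256 FPKM in control and suppressed testis and 0.0578 and 5.27 in control and suppressed ovary. All 3 suppressed ovary libraries were above all 3 control libraries, and 50.0% of the genes tested in ovary had groups that did not overlap. Over the alternatives of this result the value ran from -7.04 to -2.54, with adjusted p from 2.65e-15 to 0.000925.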

How the results depend on the processing

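Gene values under an alternative were counted for the members, c3b.2 and listed complement genes that had passed. Of these values 498 kept direction and side of the threshold, 39 lost significance, 2 gained it and 3 reversed. The listed genes entered only in comparisons they had passed, so they could lose a call but not gain one. Genes past the test in testis numbered 1571, with 2890 by DESeq2, 276 with the replicate number as a block and 418 to 2899 without 1 library; without suppressed replicate 3 there were 2899, and 418 without control replicate 2. Members past the test numbered 1 in testis, with 0 under the block and 0 to 1 without 1 library, 2 in ovary, with 1 by limma at either pseudocount and 1 to 2 without 1 library, and 1 for the difference between the gonads, with 2 by limma on log2(FPKM + 1). Same-numbered libraries did not deviate together (correlations of -0.477 to -0.035 in testis and -0.241 to -0.081 in ovary), none correlated best with its own number, and the block is not a pairing in the design. Reversed values were those of the difference between the gonads for c8g, -0.17 by limma on log2(FPKM + 1) and -0.36 to 4.29 without 1 library, the lowest without suppressed testis replicate 2, the only testis library with counts, and for c3b.2, -0.08 by limma on log2(FPKM + 1); the cause was not tested for the limma values. Total count scaling moved the median of all genes in testis from 0.00 to -0.11. Depth limits the outer C3 copies, c8a in ovary and c8g in testis.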
